A study of Mus musculus with 5 samples.

Results

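CM4 cardiomyocytes are a state of neonatal heart muscle cells that the study describes as entering the cell cycle after injury. The spots examined here are those that touch them: spots of the Visium grid in which CM4 was not the strongest of 11 cell type scores, but which lay directly beside a spot in which it was. Spots beside each other had centres 1.0 median spot spacing apart, and the next nearest spots outside this limit lay at 1.7 spacings. The bordering spots were compared, section by section, with remote spots, which lay more than 4 spacings from any CM4-dominant spot. Only spots with at least 1000 UMIs (unique molecular identifiers, the count of captured transcripts) were used. In the 3 sections of infarcted hearts, 381 spots were bordering and 580 were remote, of 1860 spots in these sections and 3364 in the series.

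The hearts were from wildtype C57BL/6 mice operated on at postnatal day 1. Myocardial infarction (MI) was made by tying off the left anterior descending artery, and sham hearts were operated on without it. One transverse section of 10 µm, cut 200 µm below the suture, was measured at day 3 after MI (1 section), day 7 after MI (2 sections), day 3 after sham surgery (1 section) and day 7 after sham surgery (1 section). By the account of the study the 2 MI day 7 sections are independent biological replicates, and each other group is 1 sample. The p-values of bordering against remote spots rest on the spread between 3 MI sections of unlike days, which limma draws toward the trend over other genes. The trend had the larger weight, with 7.77 prior against 2 residual degrees of freedom. The SE and p-value of a gene are therefore not measures of its own spread alone. A Visium spot covers several cells, so fewer cells of a type and less RNA per cell cannot be told apart.

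At the edge of an infarct lies the border zone, where surviving cardiomyocytes are stretched and poorly supplied with blood. Border zone cardiomyocytes are known for turning on genes of the fetal heart, among them the natriuretic peptides Nppa and Nppb, and for lowering genes of mature contraction and energy use. The same region fills with macrophages that clear dead cells and with fibroblasts that lay down matrix, so a spot there usually holds muscle and other cells together.

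The MI day 3 section had 75 bordering, 125 remote and 40 CM4-dominant spots. MI day 7 replicate 1 had 154, 179 and 76 of them, and MI day 7 replicate 2 had 152, 276 and 86. The bordering spots had median totals of 37218, 54971 and 22548 UMIs in the 3 sections, against 26758, 51575 and 19109 in the remote spots, so the remote spots were shallower in every MI section. The remote spots also lay at the rim of the tissue more often. Of them, 40.8%, 34.1% and 30.1% had fewer than 6 neighbours, against 8.0%, 5.84% and 12.5% of the bordering spots. In the sham sections the rim was more common among bordering spots, at 25.2% against 7.32% at day 3 and 14.9% against 12% at day 7.

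**Figure D1:**
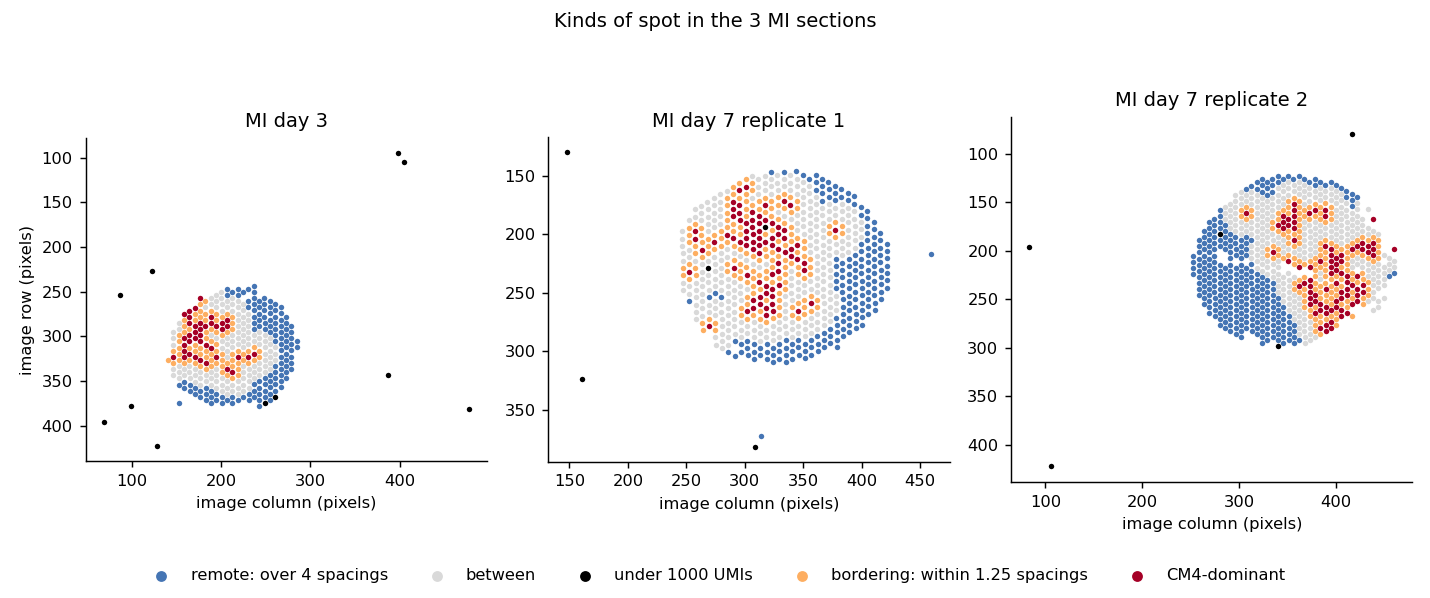
Spots of the 3 MI sections by image column and row, both in pixels and to the same scale, coloured by kind. CM4-dominant spots (40, 76 and 86) lie partly in patches on 1 side of each section and partly more scattered. Of them, 28, 52 and 64 had 2 or more CM4-dominant neighbours. Counted from these alone, 37, 63 and 90 spots were bordering. The remote spots (125, 179 and 276) lie mostly along the side opposite the patches, so distance from CM4 and place in the heart cannot be told apart.

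By construction no bordering spot had CM4 as its highest score, and the scores themselves chose the spots, so they are described without a test. The CM4 score averaged 14.4%, 11.8% and 15.8% of the total score in bordering spots and 1.17%, 1.86% and 2.02% in remote spots. It was under 0.05, that is 5 hundredths of the total, in 24, 60 and 46 of the bordering spots. CM1, the cardiomyocyte class that was the highest score in most remote spots, was the highest in 24% of the bordering spots at day 3 (18 of 75 spots, exact 95% interval 14.9% to 35.3%), against 84.8% of the remote spots. At day 7 it was the highest in 34.4% and 55.3% of the bordering spots against 74.9% and 78.6% of the remote spots.

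The place of CM1 was taken mostly by non-muscle classes. Fibroblasts (FB) were the highest score in 20%, 30.5% and 28.9% of the bordering spots of the 3 MI sections, against 0.8%, 2.23% and 3.99% of the remote spots. In sham the FB shares were 29.4% against 26.0% at day 3 and 40.4% against 17.1% at day 7. At MI day 3, 14 of 75 bordering spots had macrophages as the highest score, which is 18.7% with an exact binomial interval of 10.6% to 29.3%. None of the 125 remote spots of that section did (0 of 125, which allows up to 2.91% by the same interval). At day 7 macrophages were the highest in 2.60% and 1.32% of the bordering spots and in 6.70% and 0.725% of the remote ones, so the shares of the groups were close or in the other order. These intervals cover counting error only.

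**Figure D2:**
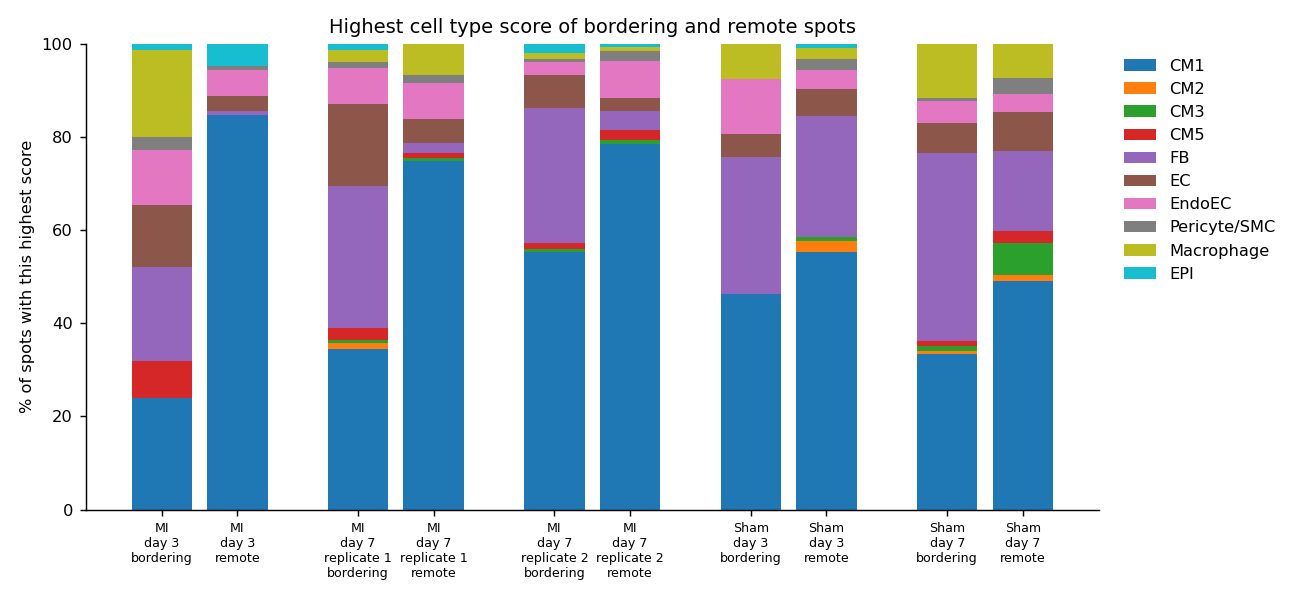
Share of bordering and remote spots, in percent, by the class with the highest score, for the 5 sections; each bar adds up to 100. In MI the blue CM1 part is 24%, 34.4% and 55.3% of the bordering spots against 84.8%, 74.9% and 78.6% of the remote spots, and fibroblasts take up 20% to 30.5% of the bordering spots.

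The score of CM5, a cardiomyocyte class that the study links to cell death and hypertrophy after injury, was not highest next to the CM4 spots. It averaged 6.00%, 6.46% and 5.85% in the bordering spots of the 3 MI sections and 10.7%, 8.91% and 8.83% in the second ring, the spots 1.7 to 2.0 spacings away. It was highest in that ring in the first 2 sections, while in MI day 7 replicate 2 the third ring, at 2.6 to 3.0 spacings, was level with it (8.88%). Beyond 6 spacings it was 2.11%, 1.49% and 6.66%. The CM1 score rose with each step outward to the fourth ring in all 3 sections, from 22.5%, 28.9% and 36.2% in the bordering spots to 61.9%, 55.2% and 56.2% in the fourth ring, at 3.5 to 3.6 spacings.

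Nppa, which encodes atrial natriuretic peptide, had by far the largest difference of the marker genes. Expression is given in CPM, the share of a gene in a spot's total scaled to the same total in every spot, averaged over the spots of a kind. In the MI day 3 section the mean was 15082 CPM in bordering spots and 2076 CPM in remote spots. In MI day 7 replicate 1 it was 323 and 31.8 CPM, and in MI day 7 replicate 2 it was 2355 and 195 CPM. Bordering spots were higher than remote spots in each section, although the level in the bordering spots of MI day 7 replicate 1 was below that in the remote spots of the day 3 section. The difference was 3.2 ± 0.13 (SE) on the log2(CPM + 1) scale, a 9.50-fold ratio, with an adjusted p of 4.41e-06 (limma with section as a block, Benjamini-Hochberg over all genes). Nppa lies on chromosome 4 at 148000722 to 148002079 of GRCm38, on the plus strand (ENSMUSG00000041616.9).

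The higher level of Nppa was found in most of the bordering spots. The median bordering spot held 12010 CPM at day 3 and the median remote spot 1369 CPM. At day 7 the medians were 132 and 18.8 CPM in replicate 1 and 1258 and 142 CPM in replicate 2. Of the bordering spots, 76%, 61.7% and 85.5% were above the 95th percentile of the remote spots of their own section. The highest bordering spots reached 41479, 5053 and 20964 CPM.

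Nppb, which encodes B-type natriuretic peptide, was higher by less. Its mean in bordering and remote spots was 333 and 121 CPM at MI day 3, 162 and 81.3 CPM in MI day 7 replicate 1, and 309 and 161 CPM in replicate 2. All 3 sections had the higher mean in the bordering spots, and the lowest bordering mean was about level with the highest remote mean. The difference was 1.12 ± 0.11 (SE, log2) with an adjusted p of 0.000543 by limma. Nppb lies next to Nppa, on chromosome 4 at 147985788 to 147987205, plus strand.

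Ankrd1, an ankyrin repeat protein of the sarcomere and nucleus that responds to stretch, differed least of the markers. Its mean was 1214 and 700 CPM at MI day 3, 1088 and 653 CPM in MI day 7 replicate 1, and 1783 and 1672 CPM in replicate 2. The last pair was nearly equal, a log2 difference of 0.09 against 0.79 and 0.74 in the other two. Over the 3 sections the difference was 0.54 ± 0.14 (SE) with an adjusted p of 0.0406 by limma, and 0.28 with an adjusted p of 0.288 when the profiles were scaled by median-of-ratios, which centres the typical gene at no difference. Without MI day 7 replicate 1 it was 0.44 with an adjusted p of 0.0772. Ankrd1 lies on chromosome 19 at 36111961 to 36120099, minus strand.

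By distance, Nppa fell from the CM4-dominant spots outward without a step at the border. At MI day 3 its mean was 22554 CPM in CM4-dominant spots, 15082 CPM in bordering spots, 8126 CPM in the second ring, 4461 CPM in the third, 2394 CPM in the fourth, 2284 CPM between 4 and 6 spacings and 1766 CPM beyond 6. MI day 7 replicate 1 ran from 336 and 323 CPM through 138, 84.9, 41.6 and 39.2 CPM to 22.1 CPM over the same 7 steps. MI day 7 replicate 2 ran from 4387 and 2355 CPM through 1192, 396, 404 and 238 CPM to 173 CPM. The bordering and CM4-dominant means were close in MI day 7 replicate 1, where the highest bordering spot reached 5053 CPM, but the median bordering spot lay below the median CM4-dominant spot in all 3 sections. These medians were 12010 and 21126 CPM at day 3, 132 and 253 CPM in replicate 1, and 1258 and 3374 CPM in replicate 2.

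Nppb and Ankrd1 had smaller gradients. At MI day 3 Nppb went from 692 CPM in CM4-dominant spots to 333 CPM in bordering spots and 178 CPM in the second ring, and was 116 to 160 CPM farther out. Ankrd1 at MI day 3 went from 2127 to 1214 to 852 CPM and was 682 to 756 CPM farther out. In MI day 7 replicate 2 Ankrd1 was 2096 CPM in CM4-dominant spots and 1783 CPM in bordering spots, and between 1465 and 1674 CPM in every ring beyond. These are means over spots of 1 section and carry no test, since distance from CM4 chose the spots.

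**Figure D3:**
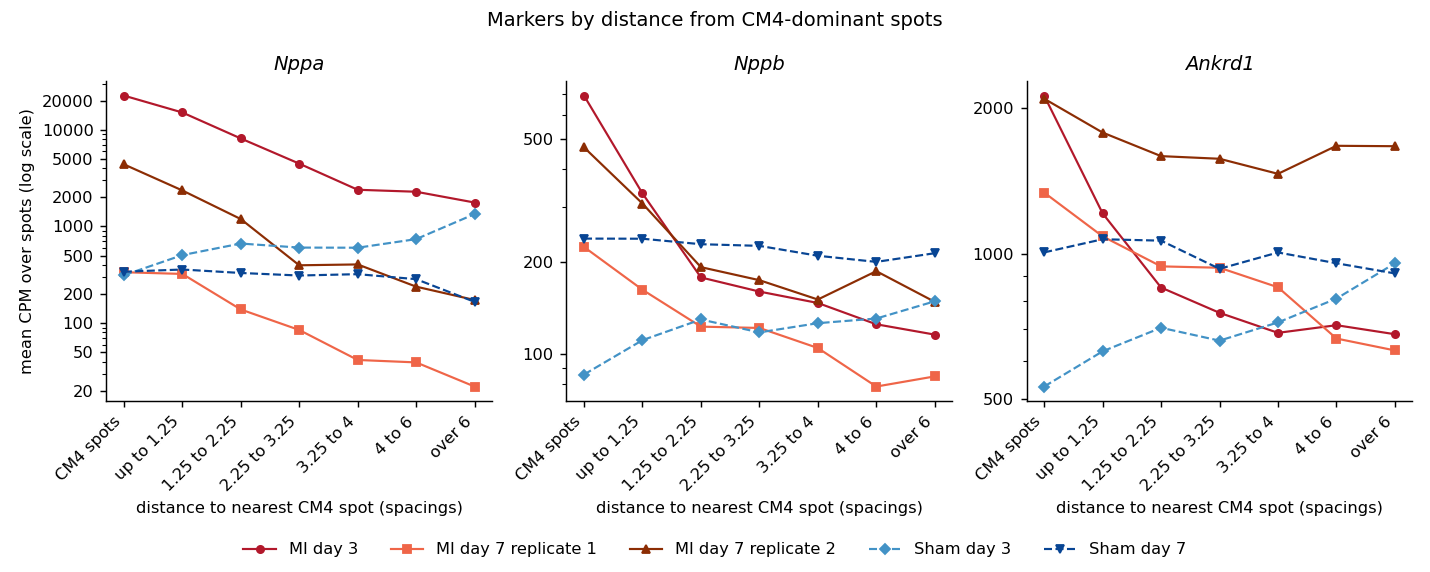
Mean CPM of Nppa, Nppb and Ankrd1 on a log axis against distance from the nearest CM4-dominant spot in spacings, with 1 line per section, solid for MI and dashed for sham. Nppa falls from 22554 to 1766 CPM at MI day 3, while the sham day 3 line goes the other way, from 313 CPM in CM4-dominant spots to 1342 CPM in the 14 spots beyond 6 spacings.

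Spots with more CM4 neighbours had higher means of Nppa at day 7. In MI day 7 replicate 2 the mean of Nppa was 1534 CPM with 1 CM4-dominant neighbour (77 spots), 2832 CPM with 2 (43 spots) and 3692 CPM with 3 or more (32 spots). Replicate 1 had 231, 368 and 579 CPM. At day 3 the order did not hold, with 15434, 12694 and 18881 CPM. Nppb was 286, 287 and 557 CPM at day 3, 139, 184 and 211 CPM in replicate 1, and 267, 308 and 409 CPM in replicate 2. The CM4 score moved with the number of neighbours too, from 11.4% to 18.6% and 22.5% in MI day 7 replicate 2, and its part in these levels was not tested.

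Sham sections gave the background for the comparison. They too held CM4-dominant spots, 56 at day 3 and 58 at day 7, with 119 and 188 bordering spots. Nppa was 505 CPM in bordering and 808 CPM in remote spots of the sham day 3 section, and 358 and 247 CPM in those of the sham day 7 section, so the sections differed in direction. Nppb was 111 and 133 CPM at day 3 and 237 and 204 CPM at day 7. The difference between bordering and remote spots was larger in MI than in sham by 3.32 ± 0.27 (SE, log2) for Nppa, with an adjusted p of 6.25e-05, and by 1.14 ± 0.17 for Nppb, with an adjusted p of 0.00892. For Ankrd1 it was 0.64 ± 0.21 with an adjusted p of 0.154. These tests (limma on the difference within each section, 3 MI against 2 sham sections) compare differences formed within a table, because the tables were normalized separately.

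Bordering spots hold fewer CM1-dominant spots, so the comparison was repeated with only those spots in which CM1 had the highest score, in both groups (18, 53 and 84 bordering, 106, 134 and 217 remote). Nppa was still higher, at 12399 against 1936 CPM, 117 against 30.7 CPM and 1164 against 163 CPM, a difference of 2.47 ± 0.13 (SE, log2) with an adjusted p of 5.05e-06 by limma. Nppb was 641 against 120 CPM, 144 against 78.4 CPM and 286 against 163 CPM, a difference of 1.36 with an adjusted p of 0.0559. Among bordering spots with a CM4 score under 0.05, the Nppa difference was 2.23 ± 0.13 with an adjusted p of 0.000139, and the Nppb difference was 0.49 with an adjusted p of 0.0543. Ankrd1 passed in neither of these settings, with a difference of 0.61 and an adjusted p of 0.137 in CM1-dominant spots, and 0.25 and 0.352 with a CM4 score under 0.05. In CM1-dominant spots with 6 neighbours, a setting chosen after the data were seen, Nppb (1.38, adjusted p of 0.000246) and Ankrd1 (0.59, adjusted p of 0.00534) both passed in limma.

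Nppa was also high in bordering spots whose highest score was not a muscle class. In MI day 7 replicate 2 the mean of Nppa was 4768 CPM in the 44 bordering spots with FB as the highest score and 1164 CPM in the 84 with CM1. In replicate 1 it was 692 CPM in 47 FB spots and 117 CPM in 53 CM1 spots, and at day 3 it was 18108 CPM in 15 FB spots and 12399 CPM in 18 CM1 spots. In all 3 MI sections the FB spots were thus higher in Nppa than the CM1 spots. For Nppb the order varied, with 306 CPM in FB and 641 CPM in CM1 spots at day 3, 178 and 144 CPM in replicate 1, and 337 and 286 CPM in replicate 2. Ankrd1 was higher in CM1 spots at day 3 and in replicate 2 (1312 against 1515 CPM and 1742 against 1825 CPM) and higher in FB spots in replicate 1 (1185 against 934 CPM). A spot holds several cells, and which of them carried the transcript was not measured.

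Across all genes, 12869 were tested (a mean of at least 1 CPM over the 6 profiles). In bordering spots 1306 genes were higher (10.1% of those tested) and 27 were lower (0.21%), at an adjusted p under 0.05. The counts were 2603 and 70 without the MI day 3 section, 1393 and 81 without MI day 7 replicate 1 and 764 and 31 without replicate 2. Many genes leaned the same way: 53.2% of all genes were higher in bordering spots in each of the 3 MI sections, and the median difference over all genes was 0.24 (log2). Mitochondrial transcripts, which made up a large part of the totals, were a smaller part of them in bordering spots. With mitochondrial and haemoglobin genes left out before scaling, the median over all genes was 0.12. The part of these transcripts in the common lean was not tested. Scaling by median-of-ratios brought the median to -0.00 and the counts to 200 higher (1.56% of 12837 genes) and 156 lower (1.22%). Differences of genes below are on the CPM scale, and one near 0.24 is therefore a difference like that of the middle gene. The scores that chose the spots were themselves derived from the expression of these spots, so the calls are not independent of that choice.

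Gpnmb, a glycoprotein of phagocytes, had a difference of 2.70 ± 0.54 (SE), but its sections were far apart, at 224 against 10.3 CPM at day 3, 1.71 against 0.824 CPM in MI day 7 replicate 1 and 16.5 against 0.872 CPM in replicate 2. Thbs4, a matrix protein of the thrombospondin family, was close in all 3 sections, at 51.9 against 8.90 CPM, 23.8 against 3.43 CPM and 58.8 against 7.06 CPM. Its difference was 2.60 ± 0.15 with an adjusted p of 4.74e-05 by limma. Clu, the secreted chaperone clusterin, was 2160 against 261 CPM at day 3, 92.3 against 33.9 CPM in MI day 7 replicate 1 and 354 against 63.1 CPM in replicate 2, a difference of 2.31 ± 0.23.

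The other 7 genes named among the 12 largest rises differed by 1.71 to 2.28. Myl1, a myosin light chain of the early heart and of skeletal muscle, was 41.0 against 3.98 CPM, 39.2 against 5.96 CPM and 70.6 against 29.6 CPM. Cnn1, calponin of smooth muscle, was 95.7 against 13.7 CPM at day 3. Cthrc1, Adamtsl2, Tnc, Pi16 and Sfrp2 are genes of fibroblasts or their matrix, and Tnc (tenascin C) was 140 against 23.9 CPM at day 3, 20.5 against 7.42 CPM and 60.8 against 18.4 CPM at day 7. These 11 genes all stayed higher with an adjusted p under 0.05 under median-of-ratios scaling.

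**Figure D4:**
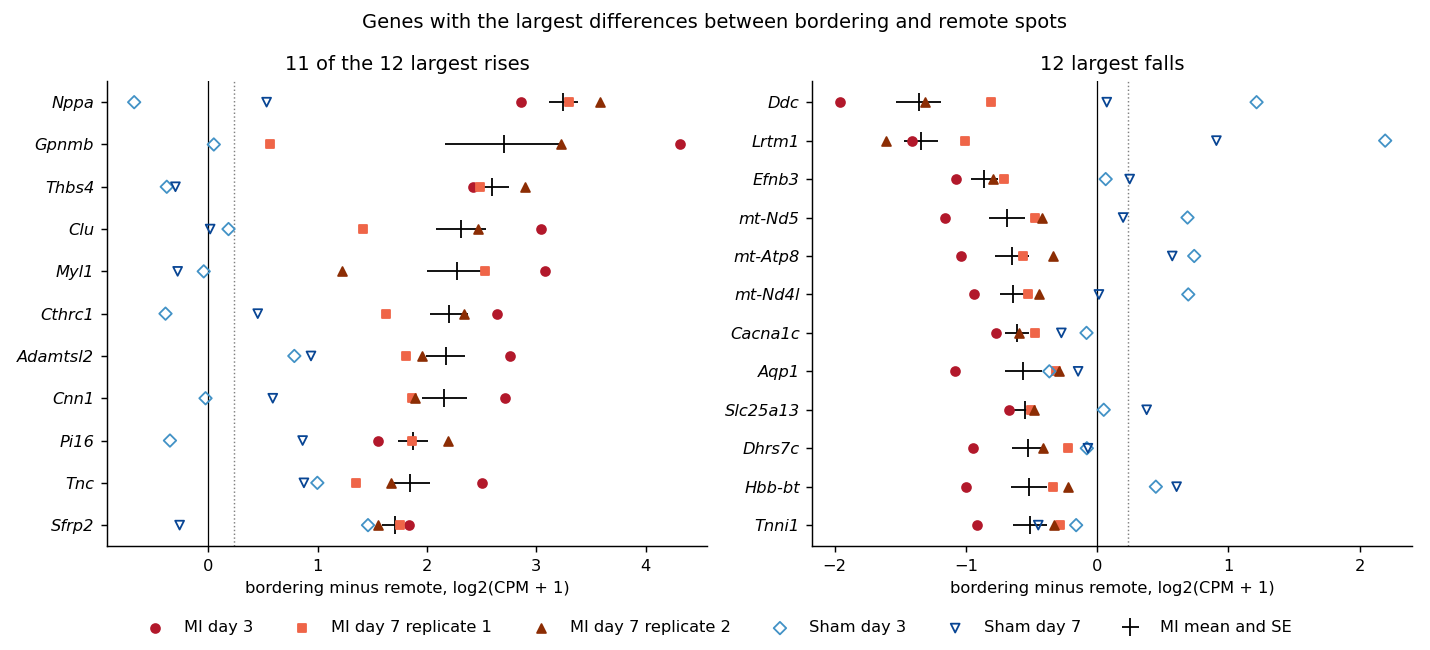
Difference between bordering and remote spots on the log2(CPM + 1) scale for 11 of the 12 genes with the largest rises and the 12 with the largest falls in MI. Filled symbols are the 3 MI sections, open symbols the 2 sham sections, black bars the MI mean ± SE, and the dotted line is the median of all genes (0.24). In the left panel the MI sections lie to the right of both sham sections for Nppa (2.86, 3.30 and 3.58 in MI against -0.68 and 0.53 in sham), and Gpnmb, which the sham day 7 table lacks, has its lowest MI section at 0.57.

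The largest falls were smaller than the largest rises. Ddc, the decarboxylase that makes dopamine and serotonin from their precursors, was 63.0 CPM in bordering and 248 CPM in remote spots at day 3, 52.5 and 92.5 CPM in MI day 7 replicate 1, and 87.2 and 217 CPM in replicate 2. Its difference was -1.36 ± 0.17 with an adjusted p of 0.00196. Lrtm1, a membrane protein with leucine-rich repeats, was 8.43 and 24.1 CPM, 40.4 and 82.2 CPM, and 17.4 and 55.1 CPM, a difference of -1.34. In the sham sections Lrtm1 had the other order, at 17.4 and 3.02 CPM at day 3 and 63.6 and 33.4 CPM at day 7. Ddc was 170 and 72.8 CPM at sham day 3 but nearly level at sham day 7, at 60.7 and 57.6 CPM, and there in CM1-dominant spots it was 49.1 and 56.9 CPM. The MI difference was below the sham difference by 2.0 for Ddc (adjusted p of 0.00917) and by 2.89 for Lrtm1 (adjusted p of 0.000698).

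Further falls among the 12 were Efnb3, an ephrin, by 0.86, the water channel Aqp1 by 0.56, the mitochondrial carrier Slc25a13 by 0.55, Dhrs7c of the sarcoplasmic reticulum by 0.53 and Tnni1, the slow troponin I, by 0.51. The rest were 3 mitochondrial transcripts, the calcium channel Cacna1c and the haemoglobin Hbb-bt, which are taken up with their groups.

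Of 9 genes of immature or smooth muscle contractile isoforms, 6 were higher and 1, Tnni1, was lower, where 10.1% and 0.21% of all genes were. The median difference was 0.76 over the list against 0.24 over all genes. In CM1-dominant spots 1 of the 9 passed, where 0.0396% of all genes were higher, with a median of 0.21 against 0.14 for all genes. The difference was more positive in MI than in sham for 1 of the 9, where it was for 0.508% of all genes. The summed level of the list was lower in bordering spots at day 3 (4512 against 6008 CPM) and higher at day 7 (2049 against 1759 CPM and 3229 against 2538 CPM). Acta1, the skeletal actin of the fetal heart, was 268 against 112 CPM, 87.9 against 34.0 CPM and 425 against 157 CPM, a difference of 1.34 ± 0.08 with an adjusted p of 6.38e-05. Acta2, the smooth muscle actin that the study used to mark CM4 cells, was 656 against 360 CPM, 362 against 195 CPM and 770 against 536 CPM, a difference of 0.76 ± 0.10. Myl4 and Myl7, the atrial myosin light chains, rose by 0.99 and 1.36, but Myl7 was at 69.7 and 25.6 CPM at day 3 and at 0.209 to 4.95 CPM at day 7.

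Mature contractile genes passed in neither direction. Of 12 genes 0 passed in limma, and 0 had an unadjusted p under 0.05. Of them 6 were lower in all 3 sections, as 3.67% of all genes were, and 0 higher, and their median was -0.21. Under median-of-ratios 0 passed as well, but 10 were lower at an unadjusted p under 0.05 and the median was -0.46. Myh6, the adult myosin heavy chain, was 4517 against 6386 CPM at day 3, 7360 against 7598 CPM in MI day 7 replicate 1 and 7029 against 7943 CPM in replicate 2, a difference of -0.24 with an adjusted p of 0.361. Within CM1-dominant spots the median of the list was 0.00, with Myh6 at 6265 against 6437 CPM at day 3.

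Of 7 calcium handling genes, 2 fell and 0 rose, where 0.21% of all genes were called lower and 10.1% higher. The median was -0.43 against 0.24 for all genes. Under median-of-ratios 4 fell, where 1.22% of all genes did, with a median of -0.69 against -0.00 for all genes. Cacna1c, the pore of the L-type calcium channel, was 99.2 against 170 CPM, 88.2 against 123 CPM and 69.7 against 105 CPM, a difference of -0.61 ± 0.09 with an adjusted p of 0.00417. Ryr2, the release channel of the sarcoplasmic reticulum, fell by 0.46. Atp2a2, its calcium pump, was 2343 against 4405 CPM at day 3, 5216 against 5669 CPM in MI day 7 replicate 1 and 3667 against 5135 CPM in replicate 2, which did not pass (adjusted p of 0.0884). In CM1-dominant spots alone 0 of 7 passed in limma (4 lower and 2 higher at an unadjusted p under 0.05) and the median was -0.22.

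Of the 13 genes of the border zone stress list, 5 were called higher and 0 lower, where 10.1% and 0.21% of all genes were. The median was 0.26 against 0.24 for all genes, and it was 0.00 under median-of-ratios. Beside the 3 markers and Clu the fifth was Xirp2, a protein of the intercalated disc and Z disc, at 79.8 against 15.6 CPM at day 3, 34.7 against 24.9 CPM in MI day 7 replicate 1 and 92.1 against 32.8 CPM in replicate 2. The other 8 did not pass. Among the 5 YAP target genes Ccn2 and Ccn1 rose with Ankrd1, by 0.92 and 0.69, where 10.1% of all genes were higher. The other 2 did not pass. Under median-of-ratios Ccn2 alone passed of the 5, at 0.66, where 1.56% of all genes were higher.

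Atrial, conduction and trabecular genes were looked at because Nppa marks those tissues too. Of the 5 atrial genes, Sln and Bmp10 were below 1 CPM on average and were not tested, and the other 3 (Nppa, Myl4 and Myl7) were all higher. Among 4 conduction and trabecular genes tested 1 was higher, the transcription factor Etv1, by 0.59 and with an adjusted p of 0.0487, where 10.1% of all genes were higher. It is named because the count is small. Under median-of-ratios and in CM1-dominant spots 0 of the 4 passed in limma, with 1 higher at an unadjusted p under 0.05 in each. Irx3, a homeobox gene of the conduction system, was 26.2 against 22.7 CPM, 35.4 against 11.9 CPM and 45.7 against 33.6 CPM (adjusted p of 0.0591). The part of such tissue in the Nppa levels was not tested.

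Fibroblast genes rose together. All 8 on the list were called higher in bordering spots, where 10.1% of all genes were. Their median was 0.90 against 0.24 for all genes. Under median-of-ratios 6 of the 8 were higher, where 1.56% of all genes were, with a median of 0.64. Col1a1, of collagen I, was 2002 against 811 CPM at day 3, 1066 against 586 CPM in MI day 7 replicate 1 and 1796 against 737 CPM in replicate 2. Mfap4, a microfibril protein, was 392 against 99.1 CPM, 224 against 73.9 CPM and 303 against 117 CPM, a difference of 1.64 ± 0.11 with an adjusted p of 0.000111. Lum (lumican) rose by 0.97. The summed level of the 8 genes was 8225 CPM in bordering spots and 7565 CPM in CM4-dominant spots at day 3, and 6538 against 4985 CPM and 8925 against 6363 CPM at day 7, so it was higher in the bordering ring than in the CM4 spots in all 3 sections.

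Of 10 genes of injury matrix, 9 were higher, where 10.1% of all genes were, with a median of 1.2. Under median-of-ratios 7 of the 10 were higher, where 1.56% of all genes were, with a median of 0.95. Timp1, an inhibitor of matrix metalloproteinases, was 78.6 against 23.9 CPM, 14.9 against 6.72 CPM and 55.6 against 16.0 CPM, and Lox, which cross-links collagen, rose by 1.37. Timp1 differed between MI and sham by 1.76 with an adjusted p of 0.00594, and Lum by 0.89 with an adjusted p of 0.0272. In all, 1 of the 8 fibroblast genes and 3 of the 10 matrix genes were more positive in MI than in sham, where 0.508% of all genes were. The sham medians of the fibroblast list were 0.39 and 0.40, and those of the matrix list 0.10 and 0.35. Within CM1-dominant spots 0 of the 8 fibroblast genes and 0 of the 10 matrix genes passed in limma, though 4 and 6 were higher at an unadjusted p under 0.05. Their medians there were 0.21 and 0.30 against 0.14 for all genes. The share of FB spots moved with both lists, and its part was not tested.

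Macrophage genes differed widely between the MI sections. Of 9 genes 2 passed as higher, C1qa and C1qb of the complement C1q complex, where 10.1% of all genes did. C1qb alone passed under median-of-ratios, where 1.56% of all genes were higher. The median of the list was 2.43 in the MI day 3 section, 0.10 in MI day 7 replicate 1 and 0.74 in replicate 2, beside 0.51 in both sham sections. Lyz2, a lysozyme of myeloid cells, was 1530 against 118 CPM at day 3, 79.2 against 91.3 CPM in MI day 7 replicate 1 and 117 against 69.7 CPM in replicate 2, and did not pass over the 3 sections (adjusted p of 0.107). Spp1, osteopontin of injury macrophages, was 1284 against 50.4 CPM at day 3, 0.881 against 1.14 CPM in MI day 7 replicate 1 and 58.5 against 1.95 CPM in replicate 2. Trem2 and Lgals3 had the same order of sections.

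The summed level of the 9 macrophage genes at day 3 peaked in the bordering ring. It was 1175 CPM in CM4-dominant spots, 2360 CPM in bordering spots, 2024 CPM in the second ring and 438 CPM in the third. In MI day 7 replicate 2 the second ring held the most, 529 CPM against 303 CPM in bordering spots, and in replicate 1 all rings were between 175 and 247 CPM. Hmox1, the haem oxygenase of macrophages and of the oxidative stress response, was 57.2 against 10.6 CPM at day 3 and 12 against 17.9 CPM and 12.3 against 10.9 CPM at day 7.

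Genes of other cell types gave few calls. Among 6 endothelial genes 0 passed in limma and 0 had an unadjusted p under 0.05, and the median was -0.08. Under median-of-ratios 0 passed as well, but all 6 were lower at an unadjusted p under 0.05, with a median of -0.33. On the CPM scale Fabp4 was 1058 against 1471 CPM at day 3 and 1184 against 1165 CPM in MI day 7 replicate 1. Of 4 endocardial genes 1 was higher, where 10.1% of all genes were. It was Plvap, by 1.34, and Emcn did not pass (0.31, adjusted p of 0.0743 by limma). Of 6 epicardial genes 0 passed in limma and 1 was higher at an unadjusted p under 0.05. Of 7 mural genes, 2 (Cnn1 and Pdgfrb) were higher and Abcc9 was lower by 0.51, where 10.1% of all genes were higher and 0.21% lower.

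Transcripts of the mitochondrial genome were lower next to CM4 spots. Of 13 genes, 12 were lower in all 3 MI sections, as 3.67% of all genes were, and the median was -0.61. Of them 3 passed, where 0.21% of all genes were called lower. mt-Nd5, of complex I, was 295 against 661 CPM at day 3, 898 against 1246 CPM in MI day 7 replicate 1 and 502 against 672 CPM in replicate 2, and it passed, as did mt-Nd4l and mt-Atp8. Their adjusted p-values were 0.0184, 0.00740 and 0.0179. The last 2 overlap neighbouring genes on the mitochondrial genome, so their counts are less certain. In both sham sections the direction was the opposite, with mt-Nd5 at 725 against 449 CPM and 537 against 468 CPM. The summed level of the 13 genes at MI day 3 was 91908 CPM in bordering spots and 173963 CPM beyond 6 spacings, and in the sham day 3 section it was 185747 and 114947 CPM.

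In CM1-dominant spots 9 of the 13 mitochondrial genes fell, where 0.0712% of all genes did. These were other genes than the 3 above, which no longer passed (mt-Nd5 at -0.43 with an adjusted p of 0.132 by limma). Among the 9 was mt-Nd2 at 5550 against 8092 CPM, 15328 against 18878 CPM and 7173 against 9902 CPM (a difference of -0.44 with an adjusted p of 0.00235). The share of rim spots was higher in the remote spots of MI and in the bordering spots of sham, as mitochondrial transcripts were. At sham day 7 the rim shares were close, at 14.9% of bordering and 12% of remote spots. Among interior spots alone the median of the 13 genes was -0.56, against -0.61 over all spots. The part of the rim in this result was not tested. Of the 15 nuclear genes of the same respiratory complexes 9 were lower in all 3 sections, against 3.67% of all genes. Their median was -0.16 and 0 of them passed in limma, with 1 lower at an unadjusted p under 0.05. Under median-of-ratios 2 of the 15 passed as lower, where 1.22% of all genes did, and all 15 were lower at an unadjusted p under 0.05. Within CM1-dominant spots their median was 0.02.

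Of the 13 fatty acid genes tested 1 fell, where 0.21% of all genes did. It was Acadm, the medium-chain dehydrogenase, by 0.50 (adjusted p of 0.0259 by limma), and the median of the list was -0.22. Under median-of-ratios 5 fell, where 1.22% of all genes did, and the median was -0.48. In CM1-dominant spots 0 passed in limma (before adjustment p was under 0.05 for 1 that was higher and 1 that was lower), and the median was -0.0063. Of 15 glycolysis genes 4 rose, where 10.1% of all genes did. Pgam1, phosphoglycerate mutase, was 286 against 142 CPM, 114 against 74.4 CPM and 197 against 135 CPM, and Pfkp and Hk1 rose by 0.40 and 0.35. The glycolysis median was 0.17, below the 0.24 of all genes, and it was -0.08 under median-of-ratios, where 1 rose and 1 fell, so the direction of the list depended on the scaling. Within CM1-dominant spots 12 of the 15 were higher in all 3 sections, as 32.3% of all genes were, with a median of 0.27 against 0.14 for all genes, and 0 passed in limma (12 higher at an unadjusted p under 0.05). Of 8 hypoxia genes 1 rose (P4ha1, a collagen hydroxylase, by 0.55) beside 10.1% of all genes, and the median was 0.10. Under median-of-ratios the median was -0.13 and P4ha1 no longer passed, nor did it in CM1-dominant spots.

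Cell cycle genes were higher in bordering spots of MI hearts on the CPM scale. Of 13 genes, 9 rose, where 10.1% of all genes did, and the median was 0.51 against 0.24 for all genes. Cdk1, the mitotic kinase, was 102 against 74.8 CPM, 42.4 against 22.0 CPM and 59.5 against 36.3 CPM, and Birc5 and Top2a rose by 0.67 and 0.56. Under median-of-ratios scaling 0 of 13 passed in limma, 7 were higher at an unadjusted p under 0.05, and the median was 0.25. In sham the medians were -0.21 and -0.07, and the MI difference exceeded that of sham by 0.87 for Cdk1 and 0.77 for Birc5 (adjusted p of 0.0360 each). By distance the summed level at day 3 was highest in the second ring (1063 CPM, with 1021 CPM in bordering and 744 CPM in the most remote spots), whereas at day 7 it was highest in the CM4-dominant spots, at 605 and 828 CPM.

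Nfe2l1 encodes the transcription factor NRF1 (nuclear factor erythroid 2 like 1) that the study is about, and its values lay close together on both sides. It was 107 CPM in bordering and 106 CPM in remote spots at MI day 3, 108 and 100 CPM in MI day 7 replicate 1 and 109 and 118 CPM in replicate 2. The difference was 0.00 ± 0.09 (SE, log2) with an adjusted p of 0.982, and -0.25 with an adjusted p of 0.146 under median-of-ratios. Its relative Nfe2l2 (NRF2) had a difference of 0.33 with an adjusted p of 0.0548. The 31 proteasome genes, which NRF1 is known to control, had a median of 0.13 and 0 passed in limma (4 higher at an unadjusted p under 0.05), with Psmd8 the largest among those at 20 CPM or more (0.29, adjusted p of 0.0572). The 14 antioxidant genes had a median of 0.19, below the 0.24 of all genes, with 2 called higher, where 10.1% of all genes were. Of these Gpx1, a glutathione peroxidase, was 561 against 293 CPM at day 3, 202 against 159 CPM in MI day 7 replicate 1 and 338 against 273 CPM in replicate 2. The list medians were 0.49 at day 3 and 0.12 and 0.16 at day 7. Under median-of-ratios the medians were -0.13 and -0.06 and 0 of either list passed in limma. At an unadjusted p under 0.05, 7 proteasome genes were then lower and 0 higher.

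Haemoglobin transcripts, a sign of blood in the spot, were lower in bordering spots of MI (a median of -0.47 over 5 genes) and higher in those of sham (0.45 and 0.48). In CM1-dominant spots the MI median was -0.48 and the sham medians were -0.19 and 0.09. Hba-a1, whose reads cannot be cleanly told from those of its near-identical copy, was 1694 against 3730 CPM at MI day 3 and 1426 against 917 CPM at sham day 3. Hbb-bt fell by 0.52. With mitochondrial and haemoglobin genes left out before scaling, 310 genes were higher and 30 lower.

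**Figure D5:**
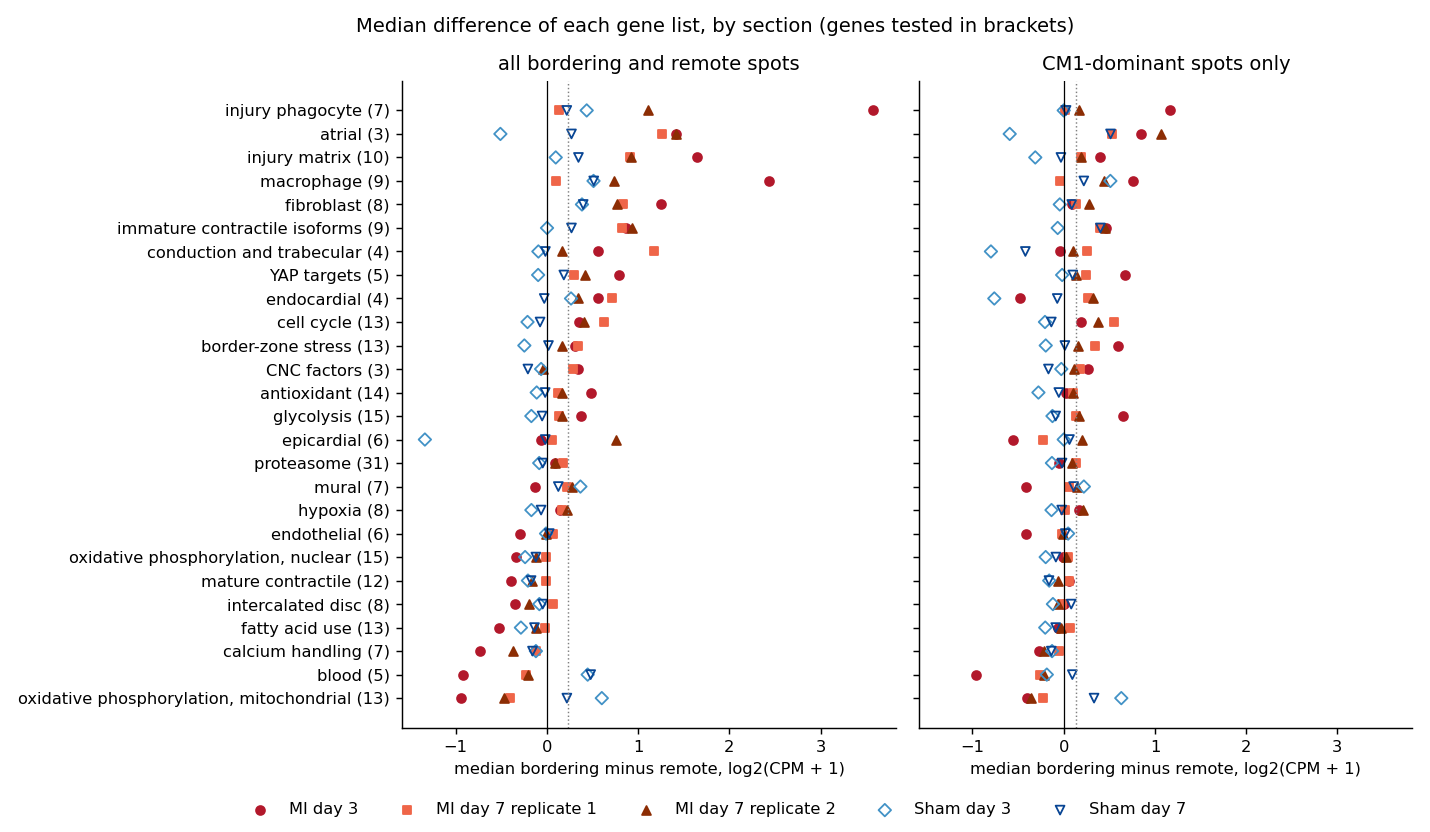
Median difference between bordering and remote spots of each gene list, on the log2(CPM + 1) scale, for the 5 sections, over all spots (left) and over CM1-dominant spots (right), with the median of all genes as a dotted line (0.24 and 0.14). On the left the injury phagocyte list is at 3.58 at MI day 3 and at 0.14 and 1.11 at day 7, and on the right the fibroblast list is at 0.09, 0.13 and 0.28.

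Within CM1-dominant spots few genes passed over the whole table, 5 higher (0.0396% of 12641 genes) and 9 lower (0.0712%). The 9 lower genes were mitochondrial, and none of them was among the 27 lower over all spots. Beside Nppa, Clu and Acta2 the higher genes were Nmrk2, a nicotinamide riboside kinase of stressed muscle, and Myl9, a smooth muscle myosin light chain, which are named because the count is small. Nmrk2 was 80.9 against 20.3 CPM, 9.71 against 3.33 CPM and 63.4 against 24.5 CPM (a difference of 1.53 with an adjusted p of 0.00495). Myl9 was 700 against 260 CPM, 154 against 103 CPM and 393 against 258 CPM. Clu was 1167 against 238 CPM, 45.6 against 28.8 CPM and 137 against 50.8 CPM. In these spots 32.3% of all genes were higher in each of the 3 sections, and 12 of the 13 border zone stress genes were, with a median of 0.36.

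Of 12792 genes tested in all 5 sections, the difference between bordering and remote spots was more positive in MI than in sham for 65 genes (0.508%) and more negative for 10 (0.0782%). The 65 held Nppa, Nppb, Clu, Thbs4, Myl1, Myl4, Cnn1, Cthrc1 and Pi16 among the genes above, and the 10 held Ddc, Lrtm1, Efnb3, Slc25a13, 4 mitochondrial transcripts and the haemoglobins Hba-a1 and Hbb-bt. Leaving out the sham day 3 section, which is the one deposited as uncorrected counts, brought these to 2 and 1, and leaving out the sham day 7 section to 23 and 4. Without the MI day 3 section they were 257 and 25, without MI day 7 replicate 1 102 and 15, and without replicate 2 28 and 6.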

How the data were processed

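Visium spatial transcriptomics was run on 5 sections, 3 of MI and 2 of sham hearts. The authors aligned the reads with Space Ranger to mm10 (GRCm38). For 4 sections, all of MI among them, the deposited values are counts corrected by the authors with sctransform in Seurat, and these are handled as a score. For sham day 3 the deposited values are uncorrected UMI counts. The 11 cell type scores are a fraction per spot that the authors obtained by label transfer from earlier single nuclei.

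Each spot was scaled to CPM over its own table, leaving out 19 and 20 gene names that were repeated or turned into dates in the tables of MI day 3 and MI day 7 replicate 2. CPM were averaged over the bordering and over the remote spots of each section. Genes at a mean of 1 CPM or more were tested on log2(CPM + 1) by limma 3.58.1 (R 4.3.3) with an intensity trend and section as a block, 3 pairs of profiles with 2 residual degrees of freedom, 2-sided, adjusted by Benjamini-Hochberg at 0.05. The block pairs the 2 profiles of each section. MI and sham were compared on the differences within sections, since the tables were normalized separately. An exact sign-flip test over 3 sections cannot go below 0.25 and was not used. The fit was also run on simulated data, and the outcome of that run is not reported here. Python 3.11.15, pandas 2.3.3 and scipy 1.17.1 were used for the rest.

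By the uncorrected totals given for each spot, the sections held 11396022 to 37492530 UMIs in all. Only in sham day 3 are these also the totals of the deposited values. The intervals of shares cover counting error only. Visium barcodes mark positions on the slide, and 897 of 1948 barcodes occur in more than 1 section. The genes named are Nppa, Nppb, Ankrd1 and Nfe2l1, the 12 largest rises and 12 largest falls past the threshold with 1 direction in all 3 MI sections and a mean of at least 20 CPM, and up to 4 members of each of 26 lists with the largest absolute difference at that level. Nmrk2, Myl9, Myl7, Plvap, Etv1 and P4ha1 were named after their values were seen. Some genes that this rule names are not reported here. The members and the lists were chosen with earlier results of these data known. Gene positions are from GENCODE vM21. Alternatives covered scaling, filters, the pseudocount, the limits of both groups, the score and rim of the spots, and leaving out each section.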

Additional observations from a re-analysis of the deposited data

Results flagged for a closer look

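The difference between bordering and remote spots was unlike in MI and sham for the following genes, by limma on the differences within sections (3 MI against 2 sham sections, 3 residual degrees of freedom, adjusted p under 0.05). All values are the MI difference minus the sham difference on the log2(CPM + 1) scale. Among the natriuretic peptides and contractile genes it was 3.32 for Nppa, 1.14 for Nppb, 2.44 for Myl1, 1.31 for Myl4, 1.2 for Myl9 and 1.87 for Cnn1. Among matrix and injury genes it was 2.94 for Thbs4, 2.21 for Clu, 2.17 for Cthrc1, 1.61 for Pi16, 1.76 for Timp1 and 0.89 for Lum. It was 1.34 for Nmrk2 and 0.77 for Pgam1, and 0.87 and 0.77 for the cell cycle genes Cdk1 and Birc5. The difference was more negative in MI by -2.0 for Ddc, -2.89 for Lrtm1, -1.02 for Efnb3 and -0.77 for Slc25a13. The mitochondrial transcripts mt-Nd5, mt-Atp8, mt-Nd4l and mt-Nd2 had -1.13, -1.3, -0.99 and -1.17, and the haemoglobins Hbb-bt and Hba-a1 had -1.05 and -1.13. Leaving out the sham day 3 section, which holds uncorrected counts, kept 3 of these 26 genes past the threshold, Nppa, Thbs4 and Lrtm1. Leaving out sham day 7 kept 11, among them these 3, Nppb, Cthrc1, Pi16 and Ddc. The share of rim spots had the opposite order in MI and sham, and its part in these values was not tested.

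Day 7 against day 3 within MI is not reported, since day 3 is 1 section and the 2 day 7 sections lay farther apart than the difference for genes such as Spp1.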

How the results depend on the processing

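The 1306 higher and 27 lower genes in bordering spots depended on several choices. Without section as a block, that is without the pairing of profiles, 1 was higher and 0 lower by limma (1385 and 25 at an unadjusted p under 0.05). Of the 68 named genes 54 lost their call. The other 14 include genes with no call to lose, such as Nfe2l1. Higher and lower genes numbered 557 and 8 with a pseudocount of 10, 200 and 156 under median-of-ratios, 310 and 30 without mitochondrial and haemoglobin genes, 196 and 4 with a CM4 score under 0.05, 567 and 14 in interior spots, 471 and 17 beside clustered CM4 spots, 336 and 11 in the middle range of UMI totals, and 5 and 9 in CM1-dominant spots. A fit over all 5 sections gave 64 lower. CM1-dominant interior spots, chosen after seeing the data, gave 31 and 15. Leaving out 1 section gave 764 to 2603 higher and 31 to 81 lower, with 1 residual degree of freedom in each case, so that the spread was taken almost wholly from the trend over other genes and these counts are less certain. All 200 genes higher under median-of-ratios and all 5 in CM1-dominant spots were among the 1306, whereas 0 of the 9 lower in CM1-dominant spots were among the 27. For MI minus sham (65 and 10), a pseudocount of 10 gave 9 and 1, CM1-dominant spots 11 and 13 (6 and 5 shared), and leaving out 1 section 2 to 257 and 1 to 25. Nfe2l1 changed sign, at -0.25 under median-of-ratios, -0.12 without mitochondrial and haemoglobin genes, -0.061 in interior spots, -0.0042 beside clustered CM4 spots, -0.012 with remote spots up to 12 spacings (chosen after seeing the data), -0.012 in CM1-dominant interior spots, -0.0081 with weights, and -0.050 to 0.064 without 1 section. Hmox1 went to -0.026 in CM1-dominant interior spots and ranged from -0.19 to 1.24 without 1 section. No other named gene changed sign under any alternative run. The causes were not tested. Remote spots were shallower than bordering ones, and low genes are limited by depth.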
